A study of Homo sapiens with 6 samples.

Results

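Translation initiation factors are the proteins that bring the initiator tRNA, the messenger RNA and the ribosomal subunits together at a start codon. They were taken as all rows of the gene tables whose symbol begins with EIF1 to EIF6. The 4 EIF2AK kinases and 4 antisense or divergent transcripts were left out, and no row of the remainder is annotated as a pseudogene. This left 50 of the 21857 listed genes, of which 49 passed the filter on low counts; EIF4EBP3 did not. RNA sequencing was done on MV4;11, an established human cell line from acute myeloid leukemia. Every library, control or treated, carries its genotype: FLT3-ITD (a duplicated stretch in the FLT3 receptor kinase) together with the fusion gene MLL-AF4. In 3 libraries the cells had been exposed for 48 h to 10 µg/ml FKA (flavokawain A, a chalcone of the kava plant), and 3 control libraries received none. The vehicle of the controls is not given in the labels. Each of 3 labelled batches holds 1 library of each group. All libraries come from 1 cell line, and nothing in the labels says how separate the cultures were, so the spread between libraries may be partly technical.

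Initiation begins when eIF2 binds GTP and the initiator tRNA, joins the small ribosomal subunit with eIF1, eIF1A, eIF3 and eIF5, and is loaded onto the mRNA by the cap-binding eIF4 factors. eIF2B recharges eIF2 with GTP after each round, and is the step that phosphorylation of eIF2 alpha blocks. The 4E-BP proteins hold eIF4E away from eIF4G until mTORC1 phosphorylates them. Many of these genes are known targets of MYC, and several initiation factor mRNAs start with a pyrimidine tract through which mTORC1 controls their translation.

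Total counts per library ran from 29971171 to 36362421. All 8 myeloid markers checked (PTPRC, SPI1, CD33, FLT3, CEBPA, LYZ, ITGAM and CD14) were detected, and their summed level was 1869.7 to 1953 CPM in controls and 1993 to 2059.8 CPM with FKA (CPM, a gene's counts relative to the library total after scaling by the trimmed mean of M values, TMM). Of these 8, ITGAM, an integrin of mature myeloid cells, rose from 16.2 ± 4.83 to 46.3 ± 7.62 CPM (1.51, edgeR adjusted p = 0.000415), and the monocyte marker CD14, near the floor of detection, rose from 0.234 ± 0.112 to 1.12 ± 0.227 CPM (2.22, edgeR adjusted p = 0.00174). The other 6 did not pass, and the part of these shifts in the results below was not tested. The summed level of 9 mesenchymal markers, among them COL1A1 and FN1, was 10.7, 8.97 and 0.803 CPM in control replicates 1 to 3 and 1.21, 52.8 and 48.9 CPM in FKA replicates 1 to 3. None of the 9 was at 0 in all libraries, and their part in the results was not tested. Of 6 T and B cell markers 3 were listed, at a summed 0.155 to 0.565 CPM in any library, and 5 epithelial markers summed to 12.9 to 21.8 CPM.

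Initiation factor transcripts were mostly lower after FKA. Of the 49 tested members, 30 fell, 7 rose and 12 did not pass (edgeR quasi-likelihood test, Benjamini-Hochberg adjusted p under 0.05 over all 13531 tested genes). Thus 61.2% of the members fell, whereas 30.5% of all tested genes were lower and 29.3% higher. Over both directions 75.5% of members were called, against 59.8% of all tested genes. The median log2 fold change was -0.53 over the members and 0.01 over all tested genes. In CPM, control and FKA libraries were fully apart in 38 members, 31 of them lower and 7 higher. Of all tested genes 67.3% were fully apart, 33.6% lower and 33.7% higher. Changes of at least 2-fold were found in 6 members, all of them lower: EIF4EBP1, EIF2S1, EIF5AL1, EIF4B, EIF3D and EIF5A. Such falls made up 13.7% of all tested genes.

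The listed members other than EIF1AY, a Y-linked copy of EIF1AX for which no level is given here, took 1.43% ± 0.0764 of all counts in controls and 1.12% ± 0.0461 with FKA (mean ± SD, n = 3 per group). The 3 control values, between 1.35% and 1.504%, all lay above the FKA values, between 1.07% and 1.16%. Because library totals and TMM both give relative levels, less mRNA per cell cannot be told apart from a lower share of the same mRNA. With library totals in place of TMM the median of all genes was 0.17 and 60.3% of all calls were higher, against 48.9% with TMM. Under that scaling 26 members fell and 8 rose. Without FKA replicates 2 and 3, the libraries with the higher mesenchymal markers, the median was -0.45 over the members and -0.01 over all tested genes. Fewer members and fewer of all genes were called there. That comparison has a single FKA library.

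**Figure D1:**
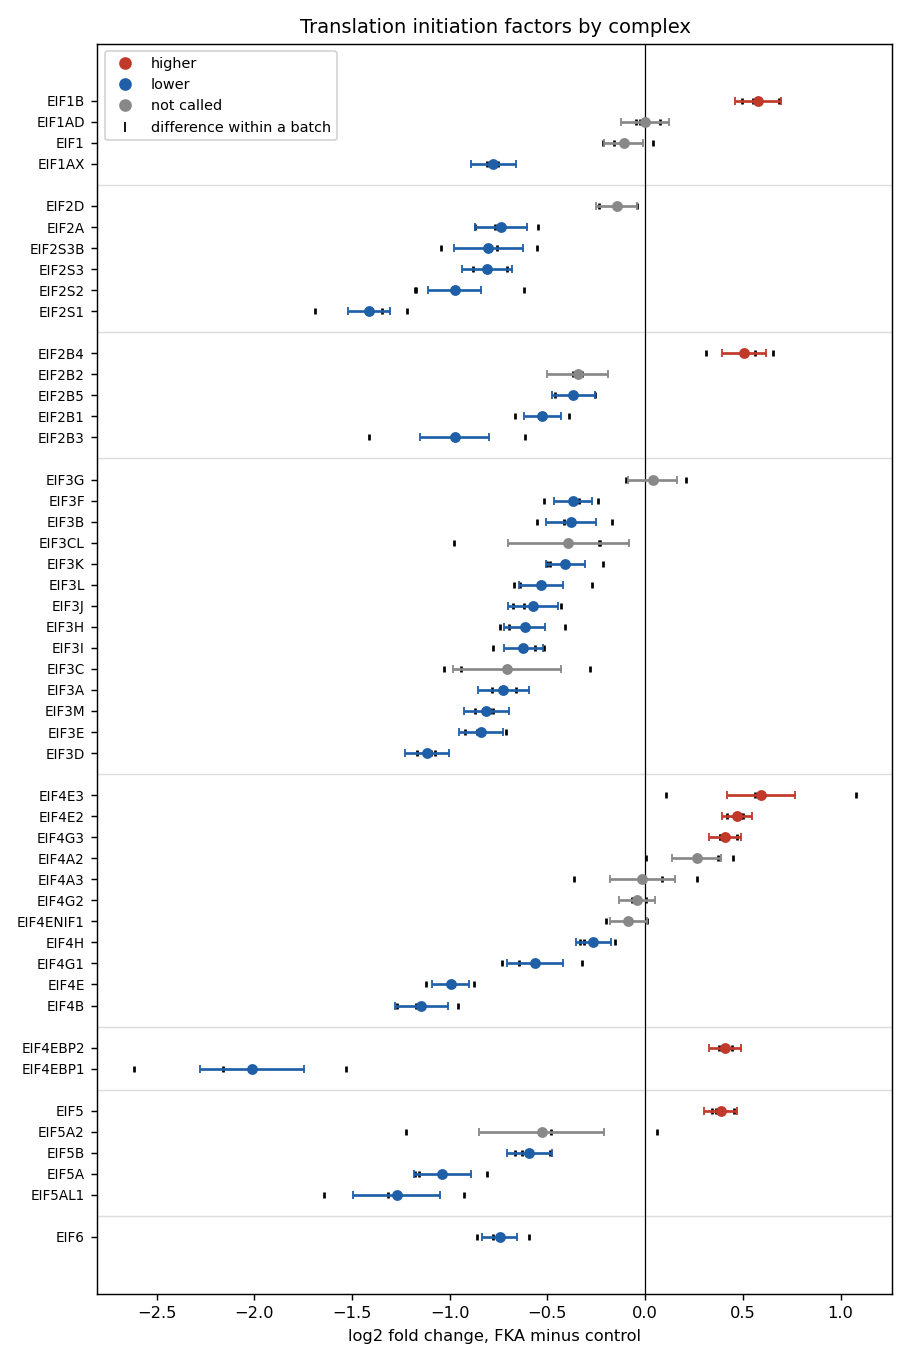
Log2 fold change (FKA minus control) of the 48 tested members other than EIF1AY, ordered by complex; points are edgeR estimates with SE, colours give the call, and short black marks are the 3 within-batch differences. Most eIF2 and eIF3 members lie left of 0, while eIF4 members lie on both sides.

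**Figure D2:**
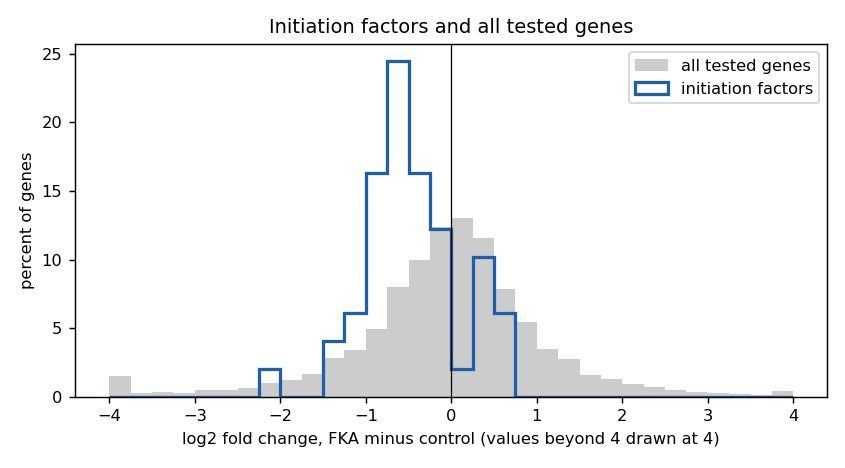
Percent of genes in each interval of log2 fold change, for all 13531 tested genes (grey) and the 49 tested initiation factors (blue line). The initiation factors lie mostly left of 0, with EIF4EBP1 the farthest at -2.01.

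The scanning factors split by gene. EIF1, which keeps the scanning ribosome open until it meets a start codon, stood at 622, 605 and 633 CPM in controls and 638, 541 and 544 CPM with FKA. Its groups overlapped, and the log2 fold change of -0.11 (SE 0.101, edgeR adjusted p = 0.369) turned to 0.05 with library totals. EIF1AX, which encodes the partner factor eIF1A, fell from 125 ± 12.9 to 72.7 ± 8.74 CPM (-0.78, edgeR adjusted p = 0.0005). EIF1AY fell as well (-0.46, edgeR adjusted p = 0.00623). The paralog EIF1B rose from 34.2 ± 3.47 to 51.0 ± 5.01 CPM (0.58, edgeR adjusted p = 0.00236). EIF1AD, a nuclear protein with an eIF1A-like domain, was level at 0.00 on the log2 scale, and at 0.16 with library totals.

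All 3 subunits of eIF2 fell, where 30.5% of all tested genes were lower. EIF2S1 encodes the alpha subunit, which carries the regulatory phosphorylation site of the integrated stress response. It stood at 81.1, 89.7 and 83.1 CPM in the controls and at 34.9, 27.8 and 32.7 CPM with FKA. Every FKA library was below every control, and the log2 fold change was -1.41 (SE 0.107, edgeR adjusted p = 1.47e-05), a 2.66-fold fall. EIF2S2, the beta subunit, which contacts eIF5 and eIF2B, had 409 ± 21.9 and 208 ± 39.9 CPM (-0.97, edgeR adjusted p = 0.000332). EIF2S3, the GTP-binding gamma subunit and the most abundant per length of the 3, had 646, 481 and 578 CPM in controls and 351, 294 and 327 CPM with FKA. These groups did not overlap either (-0.81, SE 0.128, edgeR adjusted p = 0.000647).

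The alpha subunit was also the scarcest per length. In controls EIF2S1 averaged 19.3 FPKM (the authors' values per transcript length and library total, without TMM), EIF2S2 130.2 FPKM and EIF2S3 155 FPKM, and with FKA these values were 8.08, 74.0 and 99.0 FPKM. The retrocopy EIF2S3B, similar in sequence to EIF2S3 so that reads may be shared, averaged 4.63 FPKM in controls and fell with it (-0.80, edgeR adjusted p = 0.00406). With the counts of both copies added, the value of EIF2S3 was again -0.81. EIF2A, a separate protein that can deliver initiator tRNA without GTP, fell (-0.74, edgeR adjusted p = 0.00129). EIF2D, which acts in tRNA delivery and ribosome recycling, did not pass (-0.15, edgeR adjusted p = 0.26, and 0.02 with library totals).

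Subunits of the exchange factor eIF2B did not move together. Of its 5 genes, 3 fell, 1 rose and 1 did not pass. Thus 60% were lower and 80% were called, where 30.5% of all tested genes were lower, 29.3% higher and 59.8% called. EIF2B1, the alpha subunit and the most abundant per length, had 168, 143 and 139 CPM in controls and 106, 101 and 106 CPM with FKA, with no overlap (-0.53, SE 0.095, edgeR adjusted p = 0.00136). EIF2B3, the gamma subunit of the catalytic part, fell from 21.2 ± 0.740 to 10.8 ± 2.57 CPM (-0.97, edgeR adjusted p = 0.00135). EIF2B5, the catalytic epsilon subunit, fell less (-0.37, edgeR adjusted p = 0.0175); the call was lost with library totals (edgeR adjusted p = 0.105) or when FKA replicate 2 was left out (edgeR adjusted p = 0.0664).

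The regulatory delta subunit went the other way. EIF2B4 stood at 36.9, 29.9 and 31.9 CPM in controls and 45.8, 44.1 and 50.1 CPM with FKA (0.51, SE 0.111, edgeR adjusted p = 0.00384). EIF2B2, the beta subunit, averaged only 1.76 FPKM in controls, and its -0.35 did not pass (edgeR adjusted p = 0.0812). Its groups were apart in CPM, at 7.53 to 8.69 in controls and 6.01 to 6.72 with FKA, but overlapped in FPKM. Per length, the order EIF2B1, EIF2B5, EIF2B4, EIF2B3 and EIF2B2 in controls became EIF2B1, EIF2B4, EIF2B5, EIF2B3 and EIF2B2 with FKA. The FPKM of EIF2B4 and EIF2B5 in FKA libraries, 24.4 to 27.2 and 21.7 to 25.1, overlapped.

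eIF3, the largest initiation factor, bridges the small ribosomal subunit and the eIF4 factors. Of its 14 listed genes 11 fell, none rose and 3 did not pass, with a median of -0.59. EIF3C and its near-identical copy EIF3CL are counted separately among the 14. Thus 78.6% were lower, where 30.5% of all tested genes were lower and 29.3% higher. By edgeR 0 rose, also at an unadjusted p under 0.05, and 0 rose by DESeq2. EIF3E, a subunit of the structural octamer and the initiation factor with the highest level per length, had 1858, 1491 and 1732 CPM in controls and 981, 909 and 953 CPM with FKA. Its FKA values all lay below the lowest control (-0.84, SE 0.113, edgeR adjusted p = 0.000273). EIF3D, which can bind the cap of some mRNAs, moved furthest of the subunits. It had 578, 469 and 499.5 CPM in controls and 257, 223 and 234 CPM with FKA, a 2.17-fold fall (-1.12, SE 0.11, edgeR adjusted p = 5.59e-05). In FPKM rank among the 49 members with levels given, EIF3D went from position 4 to position 11.

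Within the octamer of EIF3A, EIF3C, EIF3E, EIF3F, EIF3H, EIF3K, EIF3L and EIF3M, 7 of 8 fell. Among all tested genes 30.5% were lower. The log2 fold changes of the octamer ran from -0.84 to -0.37, a range with an SD of 0.177 over subunits, where the SD over all members was 0.560. EIF3A, the largest scaffold subunit, had 1459 ± 152 and 883 ± 114 CPM (-0.73, edgeR adjusted p = 0.00137). EIF3M stood at -0.81, EIF3H at -0.62, EIF3L at -0.53, EIF3K at -0.41 and EIF3F at -0.37, and all of these passed. EIF3F did not pass with library totals (edgeR adjusted p = 0.0654).

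EIF3C was the octamer member that did not pass (-0.71, SE 0.275, edgeR adjusted p = 0.0509). It had 50.8, 30.8 and 43.3 CPM in controls and 24.8, 16.0 and 35.6 CPM with FKA, so the groups overlapped. With the batch as a block it passed (-0.75, edgeR adjusted p = 0.00539), as it did with DESeq2 (adjusted p = 0.0156), without control replicate 2 (edgeR adjusted p = 0.0247) and without FKA replicate 3 (-1.03, edgeR adjusted p = 0.0101). Without FKA replicate 2 its value was -0.46. EIF3C has a near-identical copy, EIF3CL (-0.39, edgeR adjusted p = 0.296, and -0.08 without FKA replicate 2), and reads can be split or lost between them. Both had low levels, 10.9 and 4.45 FPKM in controls, against 41.5 to 664 FPKM for the other 12 subunits. Adding the counts of both copies gave -0.62 (edgeR adjusted p = 0.0782).

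Outside the octamer, EIF3I (-0.62, edgeR adjusted p = 0.000709) and EIF3J, a loosely bound subunit that sits in the mRNA channel (-0.57, edgeR adjusted p = 0.00432), fell. EIF3B, the scaffold of the peripheral b, g and i module, had 299, 229 and 242 CPM in controls and 204, 172 and 215 CPM with FKA (-0.38, SE 0.129, edgeR adjusted p = 0.0297). It missed the threshold with upper-quartile factors (edgeR adjusted p = 0.0636), with library totals (edgeR adjusted p = 0.133) and when control replicate 1, FKA replicate 1 or FKA replicate 2 was left out (edgeR adjusted p from 0.0577 to 0.105). EIF3G, of the same module, did not pass, with 182, 130.1 and 161 CPM in controls and 170.0, 151 and 166 CPM with FKA (0.04, SE 0.125, edgeR adjusted p = 0.809, and 0.00 or below without control replicate 2 or FKA replicate 1).

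**Figure D3:**
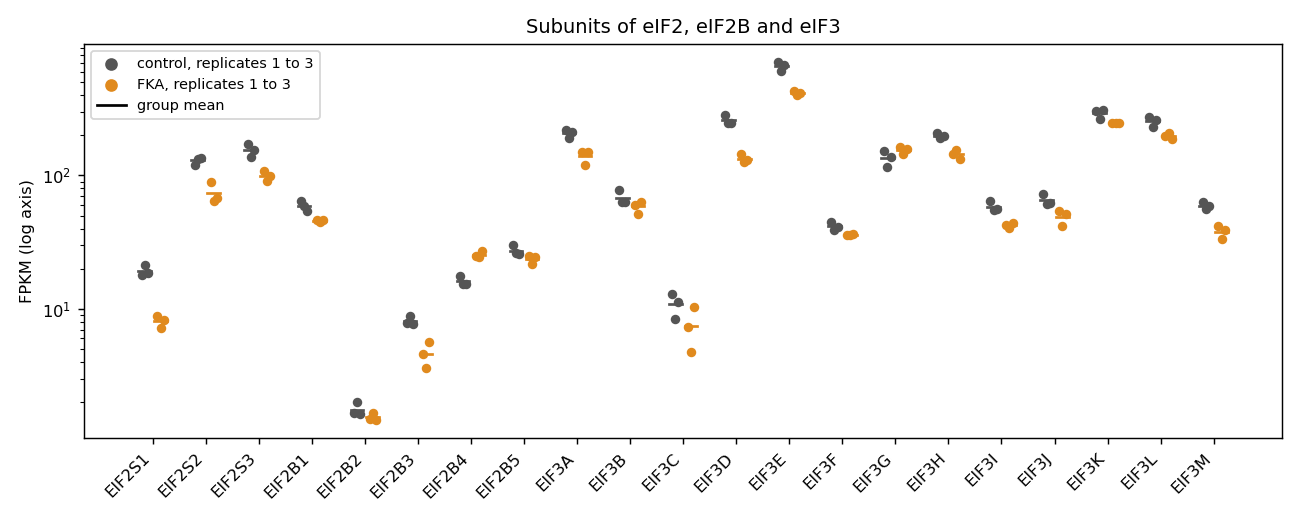
FPKM (log axis) of each library for the subunits of eIF2, eIF2B and eIF3, with group means as bars; grey points are controls and orange points FKA. EIF2S1 and EIF3D show wide gaps between the groups, EIF2B4 is higher with FKA, and EIF3C and EIF3G overlap.

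The RefSeq promoter table (build GRCh38.p14) holds windows of 250 bases before to 50 bases after the start for 41 members, 57 windows in all. EIF1AY was left out. No window was held for EIF2S2, EIF3A, EIF3CL, EIF3E, EIF3G, EIF3H, EIF3L and EIF4EBP1, so these were not searched. A C followed by 4 or more pyrimidines exactly at the annotated start, the form of a terminal oligopyrimidine tract, was present in 10 member windows (17.5%) and in 4.07% of all 35116 windows (5.36% of windows of tested genes). This search, made on the gene strand only, was chosen after seeing the expression values. The starts of the subunits of eIF2 and eIF3 with such a tract, and of EIF4B, are shown. The genes shown all fell, and the starts of EIF2D and EIF4A2, which did not pass, are not printed. The 15 bases before the start are in lower case and the pyrimidine run from the start on is in capitals.
EIF3D, chr22:36529157-36529181, minus strand: gcgcgcgcatgtttcCTCTTTTCCT
EIF3F, chr11:7987322-7987346, plus strand: ttccgcttccgcctcCTTCTTTCTC
EIF3K, chr19:38619173-38619195, plus strand: ttccgtttccaccacCTCTTCCT
EIF3M, chr11:32583816-32583837, plus strand: gcgcggcccagttccCTTTTCC
EIF2S3, chrX:24054941-24054962, plus strand: ggggtgatttccttcCTCTTTT
EIF4B, chr12:53006441-53006460, plus strand: ttgcctcatccgggtCTTTT
The other matches were in EIF2A, EIF2D, EIF2S3B and EIF4A2. Of these 10 genes 8 fell, none rose and EIF2D and EIF4A2 did not pass, with a median of -0.77. EIF2S3 and its retrocopy EIF2S3B, which may share reads, are both counted among the 8. Among all tested genes 30.5% were lower and 29.3% higher, and the calls of other genes with such a start were not counted. Of 30 tested members with a window but no such start, 15 fell, 7 rose and 8 did not pass, with a median of -0.37. The annotated start need not be the one used in MV4;11, and the difference between these sets was not tested.

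The cap-binding factors and their partners went in both directions. Of 11 eIF4 members, 4 fell, 3 rose and 4 did not pass. Thus 36.4% were lower and 63.6% were called, near the 30.5% and 59.8% of all tested genes. EIF4E, the canonical cap-binding protein and a limiting factor in many tumours, had 68.7, 75.0 and 82.6 CPM in controls and 37.4, 38.1 and 37.9 CPM with FKA. The FKA libraries were close to each other and below all controls, a 1.99-fold fall (SE 0.0952 on the log2 scale, edgeR adjusted p = 4.73e-05). Its paralog EIF4E2 (4EHP), which binds the cap but not eIF4G and represses its targets, had 68.5, 64.2 and 65.3 CPM in controls and 91.6, 90.3 and 92.5 CPM with FKA, each FKA library above each control (0.47, SE 0.0774, edgeR adjusted p = 0.000809). EIF4E3, the third cap-binding paralog, had 41.3, 56.9 and 53.9 CPM in controls and 87.4, 84.0 and 58.0 CPM with FKA. The lowest FKA library barely exceeded the highest control, and the rise (0.59, SE 0.173, edgeR adjusted p = 0.0158) was not called without FKA replicate 1 (0.48, edgeR adjusted p = 0.0634) or FKA replicate 2 (0.52, edgeR adjusted p = 0.0519).

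The order of the 3 cap-binding genes per length changed. EIF4E2 stood at 0.761, 0.652 and 0.603 times the FPKM of EIF4E in control replicates 1 to 3, and at 1.87, 1.81 and 1.86 times in FKA replicates 1 to 3. The log2 ratio thus differed by 1.46 between the groups. EIF4E3 was at 0.168, 0.211 and 0.182 times EIF4E in controls and at 0.652, 0.615 and 0.426 times with FKA, a difference of 1.58. Such ratios within a library do not depend on how libraries are scaled. In total 10 ratios between members were compared. Control and FKA libraries were fully apart for 9. Each of these had an exact two-sided permutation p of 0.1 (0.111 after Benjamini-Hochberg adjustment over the 10). A p of 0.1 is the smallest that 3 libraries against 3 can give. Of all tested genes 67.3% were fully apart in CPM, and for ratios of other genes that share was not determined. The ratios are not separate results, as several share a gene. EIF4E is the denominator for EIF4E2, EIF4E3, EIF4EBP1 and EIF4EBP2, and EIF4G1 for EIF4G2 and EIF4G3. A fall of EIF4E or EIF4G1 thus enters more than 1 ratio.

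The genes of the eIF4G scaffold family differed among themselves. EIF4G1, the main scaffold, fell from 660.3, 503 and 554 CPM to 397, 321 and 443 CPM (-0.56, SE 0.145, edgeR adjusted p = 0.00874). EIF4G3, a functional relative, had 201, 189 and 205 CPM in controls and 262, 261 and 268 CPM with FKA (a rise of 0.41, SE 0.0819, edgeR adjusted p = 0.00234). EIF4G2 (DAP5), which lacks the eIF4E-binding part and serves cap-independent initiation, had 1096, 1179 and 1156 CPM in controls and 1099.8, 1127 and 1109.9 CPM with FKA. Its groups overlapped (-0.04, edgeR adjusted p = 0.725, and 0.12 with library totals), and it moved from position 6 to position 2 of the members by FPKM. The EIF4G3 to EIF4G1 ratio differed by 0.98 on the log2 scale, from 0.249 to 0.491, and the EIF4G2 to EIF4G1 ratio by 0.53, from 2.93 to 4.22 (geometric means).

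Both helicase cofactors fell, and neither of the helicases measured passed. EIF4B, which stimulates the eIF4A helicase and is a target of S6 kinase, had 1711, 1228 and 1535 CPM in controls and 709.6, 631 and 682 CPM with FKA, with no overlap. It fell 2.21-fold (-1.15, SE 0.135, edgeR adjusted p = 0.000135). EIF4H, a related cofactor, fell from 324 ± 9.44 to 269.9 ± 18.2 CPM (-0.26, edgeR adjusted p = 0.0296). That call was lost with upper-quartile factors (edgeR adjusted p = 0.0751) and library totals (edgeR adjusted p = 0.319), and when control replicate 3, FKA replicate 2 or FKA replicate 3 was left out (edgeR adjusted p from 0.0886 to 0.108). The EIF4H to EIF4B ratio went from 0.331 to 0.604, a log2 difference of 0.87.

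EIF4A2, a translational eIF4A helicase, had 383, 284 and 291 CPM in controls and 384, 367 and 397 CPM with FKA. It overlapped through control replicate 1 and did not pass (0.26, SE 0.126, edgeR adjusted p = 0.0989), but did so without that library (0.41, edgeR adjusted p = 0.00407) and with library totals (0.43, edgeR adjusted p = 0.0103). EIF4A3, the helicase of the exon junction complex, had 68.5, 44.7 and 53.1 CPM in controls and 53.2, 47.4 and 63.9 CPM with FKA (-0.01, edgeR adjusted p = 0.944, and 0.15 with library totals). EIF4ENIF1 (4E-T), which carries eIF4E to the nucleus and to processing bodies, did not pass (-0.09, edgeR adjusted p = 0.465, and 0.07 with library totals). Other eIF4A genes are not analysed here.

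**Figure D4:**
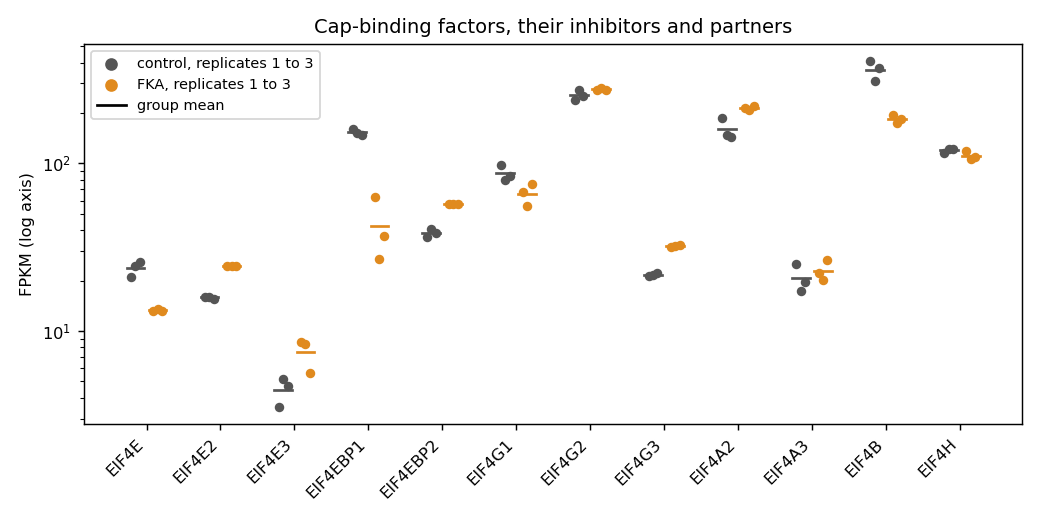
FPKM (log axis) of each library for the cap-binding genes, the eIF4E-binding inhibitors, the scaffolds, the helicases and their cofactors, with group means as bars; grey points are controls and orange points FKA. EIF4E and EIF4E2 exchange places, as do EIF4EBP1 and EIF4EBP2 in FKA replicates 2 and 3.

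The inhibitors of eIF4E diverged most. EIF4EBP1, which encodes 4E-BP1 and is a known ATF4 target, had 143, 127 and 131 CPM in controls and 49.6, 20.7 and 29.3 CPM with FKA. All FKA libraries were far below the controls but differed among themselves, with replicate 1 the highest. The log2 fold change was -2.01 (SE 0.265, edgeR adjusted p = 0.000244), a 4.03-fold fall and the largest of any member. EIF4EBP2 had 298, 309.8 and 306 CPM in controls and 405, 402 and 407 CPM with FKA (a rise of 0.41, SE 0.082, edgeR adjusted p = 0.00236). EIF4EBP3 was near the floor of detection and was not tested, with 0, 8 and 4 counts in controls and 7, 1 and 1 with FKA.

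EIF4EBP2 was at 0.229, 0.269 and 0.258 times the FPKM of EIF4EBP1 in control replicates 1 to 3, and at 0.902, 2.14 and 1.53 times in FKA replicates 1 to 3. This was the widest shift of the 10 ratios (2.51 on the log2 scale). Relative to EIF4E, EIF4EBP1 went from 7.58, 6.16 and 5.77 to 4.82, 1.97 and 2.80 (-1.11). EIF4EBP2 went the other way, from 1.74, 1.66 and 1.49 to 4.34, 4.23 and 4.30 times EIF4E (1.40). The summed FPKM of the 3 inhibitors was 192 ± 4.92 in controls and 99.6 ± 18.8 with FKA, while their share of all counts was 0.0415% ± 0.00134 and 0.0463% ± 0.00148. In controls EIF4EBP2 had more counts than EIF4EBP1 but a lower FPKM.

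**Figure D5:**
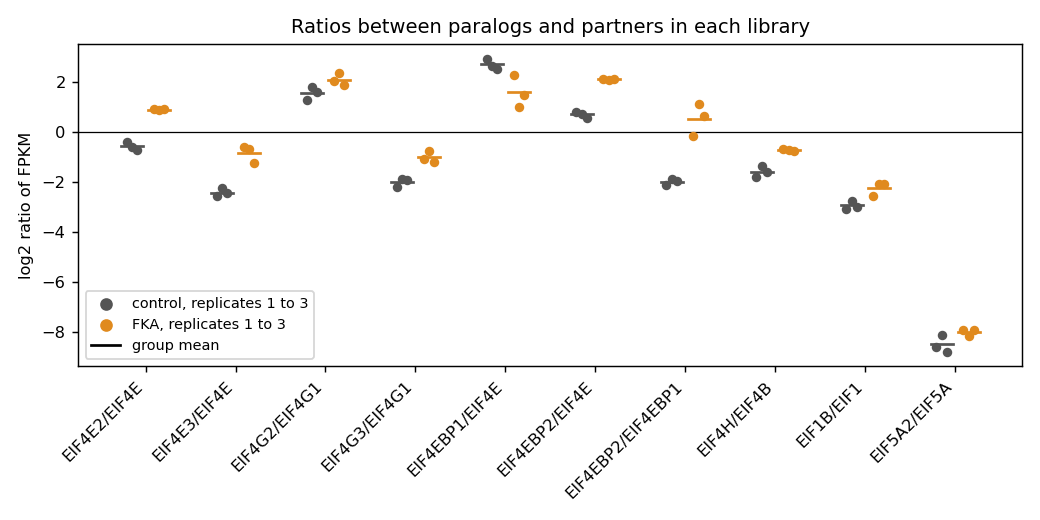
Log2 ratio of FPKM between 2 members in each library for the 10 ratios, with group means as bars; grey points are controls and orange points FKA. All but the EIF5A2 to EIF5A ratio separate the groups, and EIF4E2 passes EIF4E (above 0) in each FKA library.

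The hexamer CACGTG, to which MYC and its partner MAX can bind, was searched in the same windows; it reads the same on both strands. It was present in 11 of the 57 member windows (19.3%), in 7.26% of all windows and in 9.29% of windows of tested genes. The nearest match that ends before the start is shown for EIF4E, EIF4G1, EIF4B and EIF1B. EIF4E, EIF4G1 and the helicase cofactor EIF4B were chosen because they act in the cap-dependent step and fell, and EIF1B because it rose. Any match after the start was counted but is not printed. The hexamer is in capitals.
EIF4E, chr4:98929188-98929217, minus strand, 72 bases before the start: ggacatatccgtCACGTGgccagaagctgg
EIF4G1, chr3:184314527-184314556, plus strand, 67 bases before one of its starts: ccctgcgccggtCACGTGggggcgccggct
EIF4B, chr12:53006422-53006451, plus strand, 22 bases before the start: gcccgctataatCACGTGattgcctcatcc
EIF1B, chr3:40309641-40309670, plus strand, 54 bases before the start: gcgcgggacggtCACGTGggaggggccgcg
The remaining matches were in EIF2B3, EIF3F, EIF3K, EIF4A3, EIF4H, EIF5A2 and EIF4EBP3. Of the 10 tested members with the hexamer 7 fell, 1 rose and 2 did not pass, with a median of -0.47, and of the 30 tested members with a window and no hexamer 16 fell, 6 rose and 8 did not pass, with a median of -0.45. Among all tested genes 30.5% were lower and 29.3% higher. A match in a window is a description and not a measured binding site. EIF3F, EIF3K and EIF4B held both the hexamer and the pyrimidine start.

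Late and accessory factors also split. EIF5, which triggers GTP hydrolysis on eIF2 at the start codon, averaged 233 ± 9.46 CPM in controls and 305 ± 11.8 CPM with FKA (a rise of 0.39, SE 0.085, edgeR adjusted p = 0.00388), while all 3 subunits of its substrate eIF2 fell. EIF5B, the GTPase that joins the large ribosomal subunit, fell from 238 ± 24.3 to 158 ± 18.8 CPM (-0.59, edgeR adjusted p = 0.00229). EIF5A, which carries the modified amino acid hypusine and relieves stalled elongation, had 373, 292 and 323 CPM in controls and 167, 129 and 184 CPM with FKA. These groups did not overlap (-1.04, SE 0.146, edgeR adjusted p = 0.000347), a 2.06-fold fall.

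EIF5AL1, a copy of EIF5A with similar sequence, had 5.82, 5.39 and 5.21 CPM in controls and 2.33, 1.72 and 2.73 CPM with FKA. Its groups did not overlap (-1.27, SE 0.222, edgeR adjusted p = 0.00114), and reads of EIF5A may have been assigned to it. With both added, the value of EIF5A was -1.04. EIF5A2 was rare, at 0.242 FPKM in controls, and did not pass (-0.53, edgeR adjusted p = 0.179). EIF6, which keeps the large subunit from joining too early and acts in its assembly, had 86.9, 80.9 and 81.5 CPM in controls and 47.8, 47.3 and 53.9 CPM with FKA. All FKA values were below the controls (-0.74, SE 0.0898, edgeR adjusted p = 0.000154).

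Levels per length covered more than 3 orders of magnitude. In controls EIF3E (664 FPKM), EIF4B (363 FPKM), EIF3K (292 FPKM), EIF3D (259 FPKM) and EIF3L (257 FPKM) led, and with FKA the order was EIF3E (415 FPKM), EIF4G2 (276 FPKM), EIF1 (259 FPKM), EIF3K (246 FPKM) and EIF4A2 (214 FPKM). In control libraries EIF3D ran from 246 to 283 FPKM and EIF3L from 232 to 277 FPKM, so these neighbours did not differ beyond their spread. EIF4EBP1 dropped from position 12 to position 24. Summed over the genes listed under each name, eIF3 transcripts had 2319 ± 178 FPKM in controls and 1668 ± 53.3 FPKM with FKA. Those of eIF2, which here include EIF2A, EIF2D and the retrocopy EIF2S3B, had 353 ± 16.0 and 218 ± 25.2 FPKM. Those of eIF2B overlapped between groups, at 113 ± 8.56 and 101 ± 4.70 FPKM.

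Other genes of the pathway were read from lists written, like the choice of members, with earlier results of these data known. Their counts stand against 30.5% lower and 29.3% higher among all tested genes. Of 14 tested factors of elongation and termination, 8 fell, none rose and 6 did not pass (median -0.50), so that 57.1% were called, close to the 59.8% of all tested genes, but all in 1 direction. EEF1E1, a scaffold protein of the aminoacyl-tRNA synthetase complex, fell from 20.9 to 2.87 CPM (-2.86) and EEF1A2 from 12.2 to 2.14 CPM (-2.51). The ribosome recycling factor ABCE1 fell by 1.53 and EEF1B2, an exchange factor of eEF1A, by 1.18 on the log2 scale. The most abundant of the list in CPM, EEF1A1 (25870 CPM in controls, -0.38, edgeR adjusted p = 0.0574) and EEF2 (6626 CPM, -0.23, edgeR adjusted p = 0.253), did not pass. EEF1G, at 2728 CPM in controls, fell by 0.58. EEF1A1, EEF2 and EEF1G were named after their values were seen. Of 9 factors of mitochondrial translation 4 fell, 2 rose and 3 did not pass (median -0.22). The falls were in the elongation factor GFM1 (-1.08), the initiation factor MTIF2 (-0.90), the recycling factor MRRF (-0.73) and TSFM (-0.44). The rises were in MTIF3, also an initiation factor (0.41), and MTRF1 (0.335). MTIF3 and MTRF1 were named after their values were seen. By edgeR 0 elongation and termination factors rose, also at an unadjusted p under 0.05, and 0 by DESeq2.

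Of 25 tested partners and regulators of initiation, 10 fell (40%), 8 rose and 7 did not pass (median -0.14). These shares lie near those of all tested genes, 30.5% lower and 29.3% higher. BZW2, a mimic of eIF5, fell from 115 ± 9.70 to 41.0 ± 3.74 CPM (-1.49, edgeR adjusted p = 1.03e-05), and DOHH, which completes the hypusine of eIF5A, fell by 1.38 on the log2 scale. LARP1, which binds pyrimidine-tract mRNAs, fell by 0.94. The kinase gene MKNK1, whose product phosphorylates eIF4E, rose from 51.2 ± 5.12 to 119 ± 6.49 CPM (1.21, edgeR adjusted p = 2.01e-05). Its relative MKNK2 (0.91), the eIF4A inhibitor PDCD4 (0.64) and PAIP2, an inhibitor of poly(A)-binding protein (0.53), also rose. So did DHX29 (0.53), RPS6KB2 (0.48), CYFIP1 (0.40) and GIGYF2 (0.26). The remaining falls were in PABPC4 (-0.86), MCTS1 (-0.59), PABPC1 (-0.56), RPTOR (-0.53), NCBP1 (-0.48), MTOR (-0.39) and DENR (-0.26). All called genes of the list other than BZW2, DOHH, LARP1 and MKNK1 were named after their values were seen. Of 6 genes that set eIF2 alpha phosphorylation, EIF2AK4 (0.65) and EIF2AK2 (0.41) rose, and PPP1R15A (-0.89) and EIF2AK3 (-0.50) fell, again near the shares of all tested genes.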

How the data were processed

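Per the file headers, the authors deposited raw counts and FPKM for 21857 genes in 6 library columns. A gene's FPKM equalled its count over the column total and 1 length per gene (largest relative deviation 6.9e-07). For the aligner, counter, strand use and annotation, nothing was given in the sources used here. GRCm38 and mm10, both mouse builds, appear in the submitters' processing notes, while the symbols are human, so coordinates are printed only for RefSeq promoter sequences (GRCh38.p14).

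Columns were matched to libraries by title. Counts were filtered with filterByExpr (13531 genes kept), scaled by TMM and tested with edgeR 4.0.16 (quasi-likelihood F test) in R 4.3.3 with Benjamini-Hochberg adjustment and a threshold of 0.05. CPM values use the TMM-scaled library sizes and come with SD over 3 libraries. TMM factors were 0.921 to 0.985 in controls and 1.05 to 1.07 with FKA. Ratios used FPKM of members with at least 10 counts in every library, with an exact permutation test. Labelled batches carry the same number as the replicates, and each pairs 1 control with 1 FKA library; deviations from the group means correlated at 0.05, 0.34 and -0.08 within batches 1 to 3. Alternatives were the batch as a block, DESeq2 1.42.0, 3 other scalings, 2 other filters, limma 3.58.1 on log2(FPKM + 1) and log2(FPKM + 0.1), summed copies, and libraries left out. Reads of near-identical copies and of antisense partners could not be told apart, and at most 0.0576% of a library's counts lay outside the tested genes. Members, lists and tests were chosen with earlier results of these data known. Values per library are given for members with a call and at least 2-fold change, the highest of each complex by FPKM and the 4E-BPs. They are also given for the eIF4A, eIF4E and eIF4G paralogs and for some others named after their values were seen. From each other list up to 4 called genes with the largest change are named, and some more after their values were seen.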

Additional observations from a re-analysis of the deposited data

How the results depend on the processing

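Of 877 member values under the alternatives, 784 kept their direction and their side of the threshold, 42 lost the call, 10 gained it and 41, none of them called in the first place, changed sign. Leaving out 1 library in turn gave 6 to 8 members higher and 27 to 31 lower, and 3365 to 3981 higher and 3711 to 4212 lower among all genes. The same ranges were 7 to 10 lower for elongation and termination, 7 to 8 higher and 8 to 10 lower for the initiation partners, 2 higher and 1 to 2 lower for the eIF2 alpha kinases and phosphatase, and 1 to 2 higher and 3 to 4 lower for mitochondrial factors. Without FKA replicates 2 and 3, which leaves 1 FKA library assumed to vary like the controls, 2 members were higher and 18 lower, and among all genes 2020 and 2599. In that setting the partners had 5 higher and 6 lower, the kinases and phosphatase 1 and 1, and the mitochondrial factors 0 and 2; fewer samples entered. The kinases and phosphatase had 1 lower also with library totals and in the 3 limma fits on FPKM; the cause was not tested. The batch as a replicate block gave 31 members lower and 7 higher, changed no call but that of EIF3C, and moved EIF1AD to 0.0010.

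Signs changed, with no call, as follows, and the cause was not tested. EIF1 was at 0.049 with library totals, at 0.045 in the 3 limma fits, and at 0.032 without FKA replicates 2 and 3. EIF1AD was at 0.066 with upper-quartile factors, 0.16 with library totals, 0.023 with the CPM filter, 0.14, 0.16 and 0.14 in the limma fits, 0.11 without FKA replicates 2 and 3, and -0.067 to 0.081 with 1 library left out. EIF2D was at 0.016 with library totals and at 0.013, 0.014 and 0.013 in the limma fits. EIF3G was at -0.00052 with no filter and -0.094 to 0.14 with 1 library left out. EIF4A3 was at 0.052 with upper-quartile factors, 0.15 with library totals and in the limma fits, 0.0087 with the CPM filter, and -0.16 to 0.16 with 1 library left out. EIF4ENIF1 was at 0.074 with library totals, and at 0.061, 0.071 and 0.061 in the limma fits. EIF4G2 was at 0.029 with upper-quartile factors, and 0.12 with library totals and in the limma fits. No ratio changed sign under its alternatives. Of 11 planned ratios 10 were computed; the ratio and the sum of copies that need another eIF4A gene were not run.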
